A study of Mus musculus with 12 samples.

Results

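The 32 genes described here are those of cholesterol synthesis, of its control by the sterol regulatory element binding proteins (SREBP), and of fatty acid synthesis. They were taken by gene symbol from a list of 32 symbols, and all 32 were among the 15478 genes of the authors' deposited table. Of these, 8 act in the mevalonate and isoprenoid steps, 12 in the steps from squalene to cholesterol, 5 are SREBP, SCAP and INSIG genes, 1 carries sterol between membranes and 6 make or modify fatty acids. RNA was sequenced from primary neural precursor cells, cultured cells that divide and can form neurons and glia, of C57BL/6 females aged 5 to 12 weeks. Cells received 100 µM hydrogen peroxide (H2O2) for 1 h (4 samples) or 8 h (4 samples), while control cells received phosphate-buffered saline (4 samples). Each of 4 animals gave 1 sample of every group. No source used here states when control cells were collected.

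Cells build cholesterol from acetyl-CoA through mevalonate, isoprenoid diphosphates, squalene and lanosterol. SREBP proteins are made as membrane-bound precursors in the endoplasmic reticulum. When membrane sterol is low, SCAP escorts them to the Golgi apparatus, where proteases release the part that enters the nucleus and switches on genes of sterol and fatty acid synthesis. When sterol is high, INSIG proteins hold SCAP and SREBP back. In the brain, cholesterol is made locally, since little crosses from the blood.

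SREBP acts at short promoter elements and usually together with the factors NF-Y and Sp1, so the promoters of 3 sterol enzymes are shown here. Promoters of 300 bases, 250 before and 50 after the start, were given by RefSeq (build GRCm38.p6) for 26 of the 32 genes. The letters searched, on both strands, were TCACNCCAC (a sterol regulatory element consensus), CCAAT (bound by NF-Y), GGGCGG (a GC box, bound by Sp1) and CACGTG (an E-box). Capitals below mark every match, and a match on the other strand reads ATTGG or CCGCCC. Hmgcs1 lies at chr13:119690101-119690400 on the plus strand, Acat2 at chr17:12960676-12960975 on the minus strand and Tm7sf2 at chr19:6067801-6068100 on the minus strand, each read 5′ to 3′ along its gene. Hmgcs1 is the sole gene of the 26 with a match to the letters TCACNCCAC, and Acat2 and Tm7sf2 had the smallest adjusted p at 8 h among the sterol enzymes with a promoter.
Hmgcs1: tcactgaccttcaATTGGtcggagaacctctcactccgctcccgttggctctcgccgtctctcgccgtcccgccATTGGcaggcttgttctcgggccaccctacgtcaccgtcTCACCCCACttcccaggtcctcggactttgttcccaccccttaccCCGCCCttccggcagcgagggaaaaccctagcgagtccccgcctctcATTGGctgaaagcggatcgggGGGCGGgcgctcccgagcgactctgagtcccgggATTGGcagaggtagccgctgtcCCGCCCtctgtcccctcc
Acat2: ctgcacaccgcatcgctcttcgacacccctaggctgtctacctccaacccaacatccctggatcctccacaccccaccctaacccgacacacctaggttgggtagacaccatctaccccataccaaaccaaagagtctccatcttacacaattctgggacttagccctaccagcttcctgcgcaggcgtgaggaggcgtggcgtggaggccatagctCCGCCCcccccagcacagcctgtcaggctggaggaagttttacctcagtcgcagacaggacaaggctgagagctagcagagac
Tm7sf2: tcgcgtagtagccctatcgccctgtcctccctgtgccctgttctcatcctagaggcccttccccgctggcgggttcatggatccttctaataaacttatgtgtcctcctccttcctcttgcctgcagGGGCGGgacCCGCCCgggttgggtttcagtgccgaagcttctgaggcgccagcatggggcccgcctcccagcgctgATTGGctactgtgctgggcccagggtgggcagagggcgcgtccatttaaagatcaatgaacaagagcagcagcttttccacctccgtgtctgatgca
The match in Hmgcs1, 1 of the 26 genes, reads TCACCCCAC. The letters TCACNCCAC stand in a promoter of 1.43% of the 11087 genes with both a test and a promoter entry, and in 1.24% of all 32851 promoters. Only these exact letters within the 300 bases were searched, so the other genes cannot be said to lack a sterol element. CCAAT in either orientation stood in a promoter of 22 of the 26 genes (84.6%), against 43.0% of the 11087 genes of the authors' deposited table that have a promoter entry and 37.4% of all promoters. Among the sterol enzymes it stood in 16 of 17, Acat2 being the exception. The GC box stood in 21 of the 26 genes, against 68.8% of those 11087 genes and 35.7% of all promoters. The E-box stood in 5 of the 26 genes, against 11.5% of those 11087 genes and 7.15% of all promoters. These are matches of letters and do not show that a factor was bound.

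All log2 fold changes, mean levels and calls below are from the authors' deposited table of an edgeR likelihood ratio test, which holds 1 fold change per gene and comparison. It holds no values of single samples, so neither the depth of a sample nor the spread over animals can be shown. The table is named as having outlier samples removed. No source used here says which those were, and the number per group is therefore at most 4. The value after ± is an implied standard error, the size of the log2 fold change over the root of the likelihood ratio that the authors give. A gene is called at a Benjamini-Hochberg adjusted p below 0.05 over all 15478 genes. The comparisons at 1 h and at 8 h share their control samples, and the difference of 8 h against 1 h is the difference of the other fold changes, so the comparisons are not independent of each other.

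All 32 genes were measured at a mean of at least 4.33 log2 CPM, read counts scaled to library size, over the samples that the authors kept. Divided by exon length, Scd2 had the highest mean level of the 32 genes in the authors' deposited table. It encodes a desaturase that puts a double bond into fatty acids, and stood at 9.46 log2 CPM per kb. Hmgcs1, the synthase that precedes mevalonate, followed at 8.13 log2 CPM per kb. Scd1, Cyp51, the lanosterol demethylase, and Acly, which makes cytosolic acetyl-CoA, came next at 6.78, 6.75 and 6.70 log2 CPM per kb. The lowest levels were those of Lbr at 3.01, Insig2 at 2.85 and Acaca at 2.56 log2 CPM per kb. Of the SREBP genes, Srebf2 had a mean level of 6.06 and Srebf1 of 5.20 log2 CPM per kb, and of the INSIG genes Insig1 had 6.48. With no spread over samples, neighbours in this order cannot be said to differ.

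**Figure D1:**
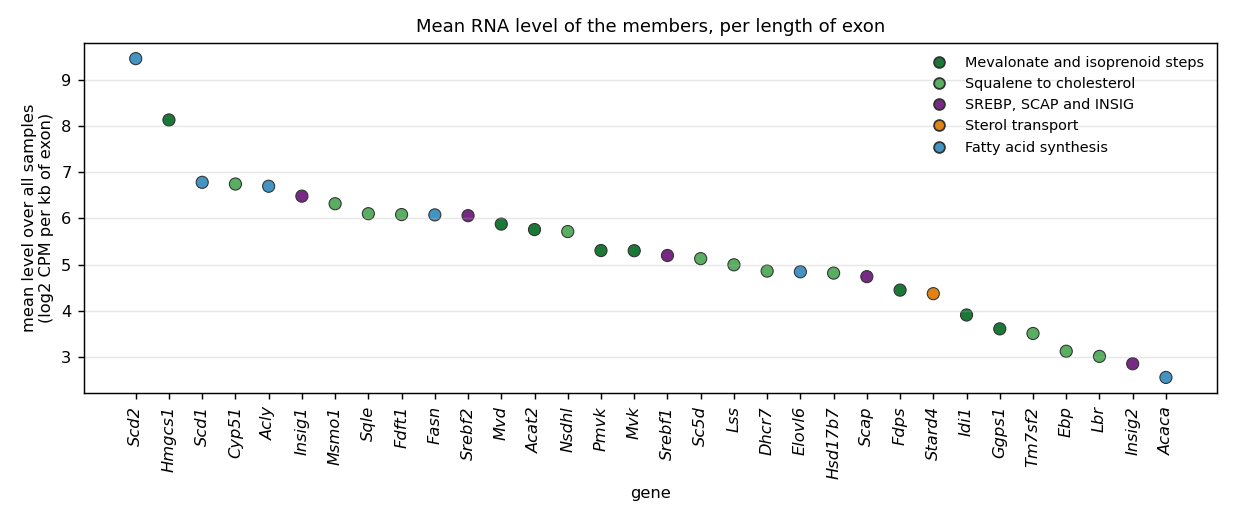
Mean level of each of the 32 genes over the samples that the authors kept (vertical axis, log2 CPM per kb of exon), ordered from high to low and coloured by the gene's role. Scd2 at 9.46 and Hmgcs1 at 8.13 stand above the others, and Acaca is lowest at 2.56.

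After 1 h of H2O2 the RNA of most genes of the pathway was modestly lower than in control cells. Of the 32 genes, 26 fell, 0 rose and 6 were not called, with a median log2 fold change of -0.25. Among all genes 42.7% were called at 1 h in the authors' deposited table, 22.2% as fallen and 20.5% as risen, and the median was 0.01. Because well expressed genes are called more often, the same was counted over the 8775 genes with a mean of at least 4 log2 CPM, a limit chosen after seeing that all 32 genes lie above it. Of these 51.5% were called, 33.6% as fallen and 17.9% as risen, with a median log2 fold change of -0.03. Their median level was 5.93 log2 CPM against 7.41 for the 32 genes, so they are not matched to the 32 genes in level. The log2 fold changes of 26 of the 32 genes lay below the lower quartile of all genes, which was -0.14.

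**Figure D2:**
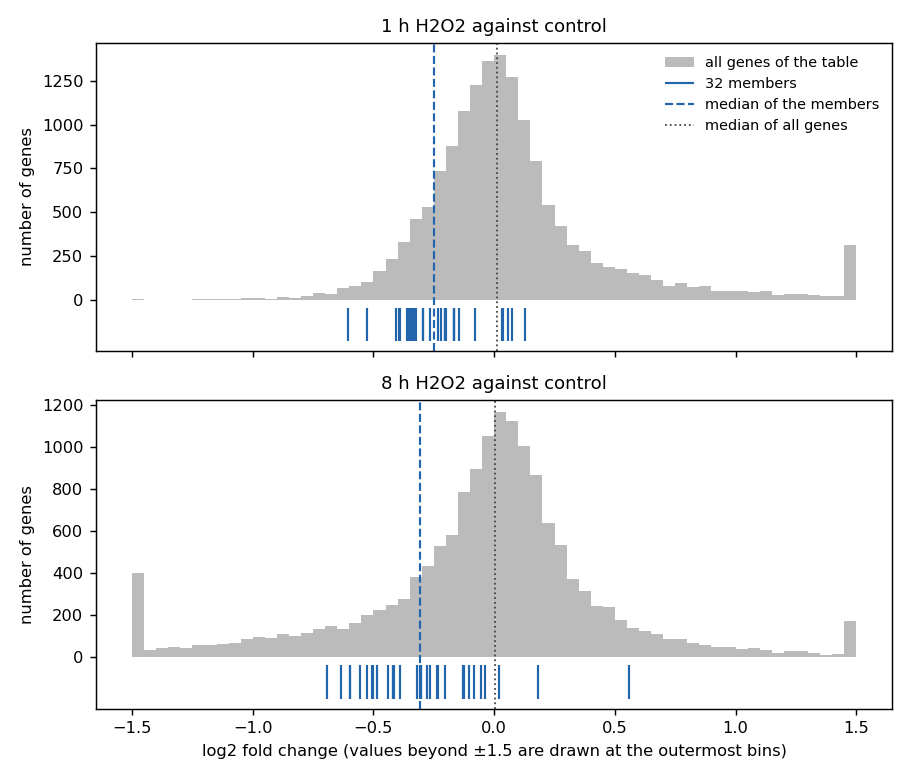
Log2 fold changes of all 15478 genes (grey histogram, number of genes) with the 32 genes as ticks beneath, for 1 h (top) and 8 h (bottom) of H2O2 against control. The dashed line is the median of the 32 genes, -0.25 at 1 h and -0.31 at 8 h, and the dotted line the median of all genes, 0.01 at each time.

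In the mevalonate and isoprenoid steps 7 of 8 genes fell at 1 h. Hmgcs1 fell by 0.35 ± 0.05 (log2; adjusted p = 2.7e-13, edgeR likelihood ratio test), which is 0.785 times the control level in the authors' deposited table. Mvd, which decarboxylates mevalonate diphosphate, fell by 0.39 ± 0.06, and Acat2, the thiolase that joins acetyl-CoA units, fell by 0.34 ± 0.05. Mvk and Pmvk, the kinases that phosphorylate mevalonate, fell by 0.27 and 0.20. Fdps and Idi1, which make farnesyl diphosphate and its isoprene unit, fell by 0.23 and 0.20. Ggps1, which makes geranylgeranyl diphosphate for protein prenylation and not for sterol, was at 0.04 ± 0.05 and was not called.

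From squalene to cholesterol 10 of 12 genes fell at 1 h. Lss, the cyclase that forms lanosterol, fell by 0.41 ± 0.05 (adjusted p = 2.3e-12, edgeR) to 0.754 times the control level in the authors' deposited table. Sqle, the squalene epoxidase, fell by 0.34 ± 0.05 (adjusted p = 2.5e-12, edgeR). Ebp, Nsdhl, Cyp51 and Tm7sf2, which demethylate, reduce or isomerise lanosterol and its products, fell by 0.36, 0.35, 0.34 and 0.32. Fdft1, the squalene synthase, fell by 0.29, Dhcr7, the last reductase before cholesterol, by 0.22, and Sc5d and Msmo1 by 0.17 each. Hsd17b7, a ketoreductase of the demethylation steps, was at 0.06 ± 0.05. Lbr, a sterol reductase that also anchors chromatin at the nuclear envelope, was at 0.13 ± 0.06 (adjusted p = 0.073, edgeR), and neither was called.

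All 6 genes of fatty acid synthesis fell at 1 h, and the 5 smallest adjusted p of the 32 genes at 1 h were theirs. Elovl6, which elongates palmitate, fell by 0.61 ± 0.04 (adjusted p = 1.4e-43, edgeR) to 0.657 times the control level in the authors' deposited table. Acaca, the carboxylase that makes malonyl-CoA, fell by 0.53 ± 0.04 (adjusted p = 2.1e-33, edgeR). Acly fell by 0.39 ± 0.04 (adjusted p = 1.2e-19), Scd1 by 0.33 ± 0.04 (adjusted p = 2.6e-15) and Fasn, the fatty acid synthase, by 0.30 ± 0.04 (adjusted p = 6.2e-14, all edgeR). Scd2 fell by 0.20. Elovl6 and Acaca also have the longest genomic spans of the 32 genes, at 106.1 and 272.0 kb. Long genes as a whole were lower at 1 h: genes with spans over 54.3 kb had a median of -0.17, against 0.13 for genes with spans up to 7.39 kb. The 3 genes of the list with spans over 54.3 kb had a median of -0.53, against -0.17 for all such genes. The 10 with spans of 20.9 to 54.3 kb had -0.26, against -0.00, the 16 with spans of 7.39 to 20.9 kb had -0.25, against 0.07, and the 3 shorter ones had -0.20, against 0.13. The part of gene length in these falls was not tested.

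Of the 5 genes of the SREBP system itself, 2 fell at 1 h and 3 were not called. Among all genes 42.7% were called at 1 h, 22.2% as fallen, and the 2 of 5 called are near the first of these shares. Srebf2, which encodes the SREBP that chiefly drives sterol synthesis, fell by 0.21 ± 0.04 (adjusted p = 2.2e-07, edgeR) in the authors' deposited table. Scap fell by 0.14 ± 0.04 (adjusted p = 4.2e-04, edgeR). Srebf1, which chiefly drives fatty acid synthesis, was at 0.03 ± 0.05 (adjusted p = 0.59), Insig1 at 0.07 ± 0.06 (adjusted p = 0.30) and Insig2 at -0.08 ± 0.07 (adjusted p = 0.36, all edgeR), and none of these 3 was called. Stard4, a carrier of cholesterol between membranes, fell by 0.17 ± 0.07 (adjusted p = 0.030, edgeR).

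After 8 h of H2O2 most enzymes were lower than in control cells, while Scap and Insig2 were higher. Of the 32 genes, 27 fell, 2 rose and 3 were not called, with a median log2 fold change of -0.31. Of all genes 55.7% were called at 8 h in the authors' deposited table, 28.2% as fallen and 27.4% as risen, with a median of 0.01. Of the genes with a mean of at least 4 log2 CPM, 63.8% were called, 29.2% as fallen and 34.6% as risen, with a median of 0.02. The spread of all genes was wider than at 1 h, and 20 of the 32 genes lay below its lower quartile of -0.24. In bulk samples such as these, fewer cells of a type and less RNA per cell cannot be told apart.

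**Figure D3:**
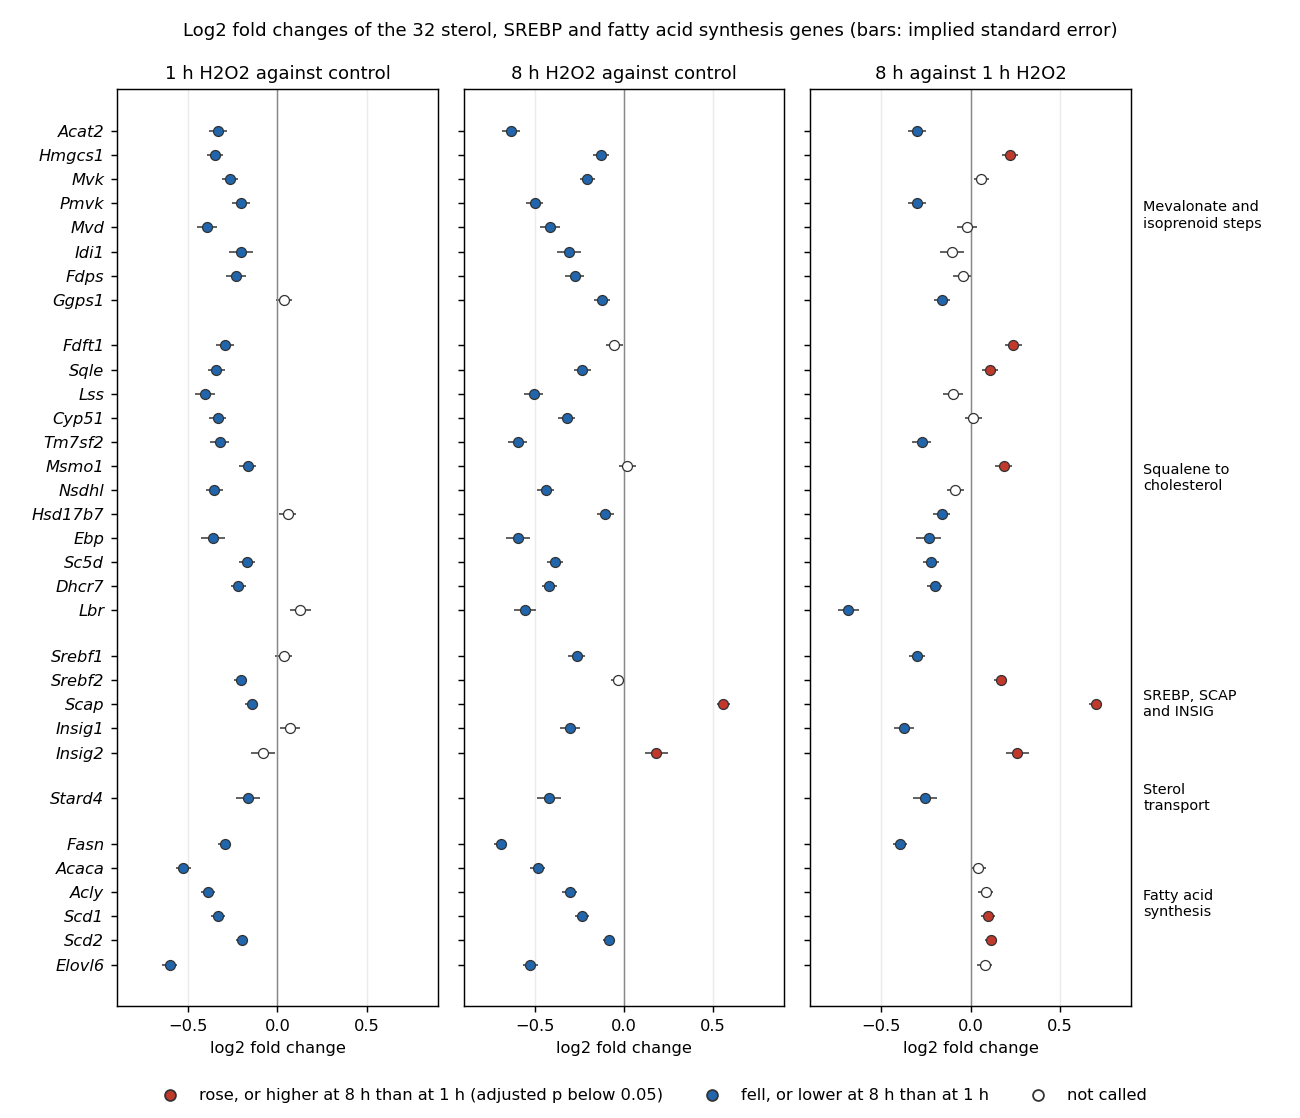
Log2 fold changes of the 32 genes (horizontal axis; bars are the implied standard error) in the comparisons 1 h against control, 8 h against control and 8 h against 1 h, ordered by role. Filled points passed an adjusted p below 0.05. Scap stands to the right at 8 h, at 0.56, and most enzymes to the left.

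All 8 genes of the mevalonate and isoprenoid steps fell at 8 h. Acat2 fell by 0.64 ± 0.05 (adjusted p = 2.8e-35, edgeR) to 0.643 times the control level in the authors' deposited table, and Pmvk by 0.50 ± 0.05 (adjusted p = 4.5e-23, edgeR). Mvd fell by 0.42, Idi1 by 0.31, Fdps by 0.28 and Mvk by 0.21. The smallest falls of these 8 were those of Hmgcs1, by 0.13 ± 0.05 (adjusted p = 0.0094, edgeR), and Ggps1, by 0.12 ± 0.04.

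From squalene to cholesterol 10 of 12 genes fell at 8 h. Tm7sf2 fell by 0.60 ± 0.05 (adjusted p = 2.6e-29, edgeR) to 0.661 times the control level in the authors' deposited table, and Ebp by 0.60 ± 0.07 (adjusted p = 2.1e-18, edgeR). Lbr fell by 0.56 ± 0.06 to 0.680 times, Lss by 0.51, Nsdhl by 0.44 and Dhcr7 by 0.42 ± 0.04 (adjusted p = 3.0e-22, edgeR). Sc5d, a desaturase near the end of the pathway, fell by 0.39, Cyp51 by 0.32, Sqle by 0.23 and Hsd17b7 by 0.11. Fdft1, at -0.05 ± 0.05, and Msmo1, at 0.02 ± 0.05, were not called (adjusted p = 0.34 and 0.76, edgeR).

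Of the fatty acid genes all 6 fell at 8 h as well. Fasn fell by 0.69 ± 0.04 (adjusted p = 1.8e-74, edgeR) to 0.619 times the control level, the smallest ratio of the 32 genes at 8 h in the authors' deposited table. Elovl6 fell by 0.53 ± 0.04 (adjusted p = 3.1e-35) and Acaca by 0.48 ± 0.04 (adjusted p = 5.4e-31, both edgeR). Acly fell by 0.30, Scd1 by 0.24 and Scd2, the most abundant of the 32 transcripts, by 0.08.

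Among the regulators the directions were mixed at 8 h. Scap rose by 0.56 ± 0.04 (adjusted p = 4.1e-54, edgeR), which is 1.47 times the control level in the authors' deposited table and the sole rise above the upper quartile of all genes among the 32. Insig2 rose by 0.18 ± 0.06 (adjusted p = 0.0095, edgeR). Insig1, itself a known SREBP target, fell by 0.30 ± 0.06 (adjusted p = 2.4e-07) and Srebf1 by 0.27 ± 0.05 (adjusted p = 4.9e-08, both edgeR). Srebf2 was at -0.04 ± 0.04 (adjusted p = 0.41, edgeR) and was not called. Stard4 fell by 0.42 ± 0.07.

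The direct comparison of 8 h with 1 h of H2O2 asks how the response differed between the times. Of the 32 genes, 13 were lower and 9 higher at 8 h than at 1 h, and 10 were not called, with a median difference of -0.07. Of all genes 62.7% differed in the authors' deposited table, 32.4% being lower and 30.3% higher at 8 h, with a median of -0.01. Of the genes with a mean of at least 4 log2 CPM, 69.2% differed, 27.1% being lower and 42.1% higher. The share of the 32 genes that differed, 22, is near those shares. The genes lower at 8 h included Lbr, at -0.68 ± 0.06 (adjusted p = 3.2e-28), Fasn, at -0.40 ± 0.04 (adjusted p = 4.1e-25), and Insig1, at -0.38 ± 0.06 (adjusted p = 8.4e-11, all edgeR). Srebf1, at -0.30 ± 0.05 (adjusted p = 5.4e-10), Acat2 and Pmvk, each at -0.30 ± 0.05 (adjusted p = 1.4e-08 and 1.3e-08), and Tm7sf2, at -0.27 ± 0.05 (adjusted p = 1.1e-06), were lower too. The others lower at 8 h were Stard4, Ebp, Sc5d, Dhcr7, Hsd17b7 and Ggps1, at -0.26 to -0.16.

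Scap was higher at 8 h than at 1 h by 0.70 ± 0.04 (adjusted p = 7.0e-83, edgeR), 1.63 times the 1 h level in the authors' deposited table, and Insig2 by 0.26 ± 0.07. Fdft1 was higher by 0.24, Hmgcs1 by 0.22 ± 0.05 (adjusted p = 3.5e-06, edgeR), Msmo1 by 0.19 and Srebf2 by 0.17. Scd2, Sqle and Scd1 were higher by 0.11, 0.11 and 0.10. The reduction of Hmgcs1 against control was thus smaller at 8 h than at 1 h, and that of Acat2, the enzyme just before it, larger. Sterol enzymes that were not called in this comparison were Mvk, Mvd, Idi1, Fdps, Lss, Cyp51 and Nsdhl, at -0.10 to 0.06, and fatty acid genes not called were Acaca, Acly and Elovl6, at 0.04 to 0.09. For Lss the authors' voom and limma table gave a call that the edgeR table did not, with adjusted p = 0.049 against 0.10.

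A further 77 genes around the pathway were read in 5 lists, and 76 were in the authors' deposited table. Their counts stand beside the shares of all genes given above, 20.5% risen and 22.2% fallen at 1 h, and 27.4% risen and 28.2% fallen at 8 h. Genes of SREBP processing and turnover, 15 in all, counted 3 risen and 8 fallen at 1 h, and 10 risen and 2 fallen at 8 h. Their median was -0.10 at 1 h and 0.14 at 8 h. Erlin2, part of the machinery that degrades sterol-regulated membrane proteins, was at -0.10 ± 0.04 at 1 h and 0.33 ± 0.03 at 8 h (adjusted p = 0.012 and 3.6e-22, edgeR). Sec24d, a coat protein of vesicles that leave the endoplasmic reticulum, was at -0.22 ± 0.04 at 1 h and 0.33 ± 0.04 at 8 h (adjusted p = 8.3e-06 and 5.4e-15, edgeR). Fbxw7, which marks nuclear SREBP for degradation, was at 0.40 ± 0.05 at 1 h and 0.42 ± 0.05 at 8 h, and both passed.

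Other SREBP-2 targets and sterol movers, 17 genes, counted 0 risen and 10 fallen at 1 h, and 5 risen and 7 fallen at 8 h, with medians of -0.11 and -0.06 in the authors' deposited table. Npc1, which exports cholesterol from lysosomes, fell by 0.34 ± 0.04 at 1 h (adjusted p = 7.3e-18, edgeR) and by 0.30 ± 0.04 at 8 h. Aacs, which activates acetoacetate for lipid synthesis, fell by 0.31 ± 0.05 at 1 h and by 0.49 ± 0.04 at 8 h (adjusted p = 7.9e-11 and 1.9e-26, edgeR). Vldlr, a lipoprotein receptor, rose by 0.36 ± 0.04 at 8 h (adjusted p = 9.4e-23, edgeR).

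Other genes of fatty acid synthesis, elongation and desaturation, 23 in all, counted 5 risen and 12 fallen at 1 h, and 5 risen and 14 fallen at 8 h, with medians of -0.13 and -0.21 in the authors' deposited table. Acss2, which makes acetyl-CoA from acetate, fell by 0.68 ± 0.06 at 1 h and by 0.42 ± 0.06 at 8 h (adjusted p = 2.8e-27 and 3.7e-12, edgeR). Me1, the malic enzyme that supplies NADPH, fell by 0.27 ± 0.03 at 1 h and rose by 0.13 ± 0.03 at 8 h. Gpam and Elovl4, which build glycerolipids and very long fatty acids, fell by 0.38 ± 0.04 and 0.44 ± 0.05 at 8 h, and at 1 h were at -0.16 and 0.18.

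Genes that use isoprenoids for prenylation, dolichol or ubiquinone, 13 in all, counted 1 risen and 3 fallen at 1 h, and 5 risen and 4 fallen at 8 h, with medians of -0.02 and -0.01 in the authors' deposited table. The 3 of 13 that fell at 1 h are near the 22.2% of all genes. Rabggtb, a subunit of the transferase that prenylates Rab proteins, rose by 0.22 ± 0.04 at 1 h. Pdss2, which builds the ubiquinone tail, fell by 0.38 ± 0.10 at 1 h. At 8 h Zmpste24, a protease of prenylated proteins, rose by 0.22 ± 0.04, and Fnta, a subunit of the farnesyl and geranylgeranyl transferases, fell by 0.22 ± 0.04.

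Of 9 genes listed for the liver X receptors (LXR) and sterol efflux, 8 were in the authors' deposited table, with 2 risen and 1 fallen at 1 h, 2 risen and 4 fallen at 8 h, and medians of 0.08 and -0.17. The 3 of 8 called at 1 h are no larger a share than the 42.7% of all genes, and the 2 of 8 risen at 8 h are near the 27.4% of all genes. Abcg1, a sterol exporter measured at a low mean of 1.04 log2 CPM, rose by 0.69 ± 0.18 at 1 h (adjusted p = 7.3e-04, edgeR) and fell by 0.60 ± 0.20 at 8 h. Cyp46a1, which hydroxylates brain cholesterol for its removal, fell by 0.80 ± 0.09 at 8 h (adjusted p = 7.3e-17, edgeR). Nr1h2, one of the LXR genes, rose by 0.24 ± 0.04 at 8 h, and Lpcat3, an LXR target that remodels phospholipids, fell by 0.15 ± 0.05 at 1 h.

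**Figure D4:**
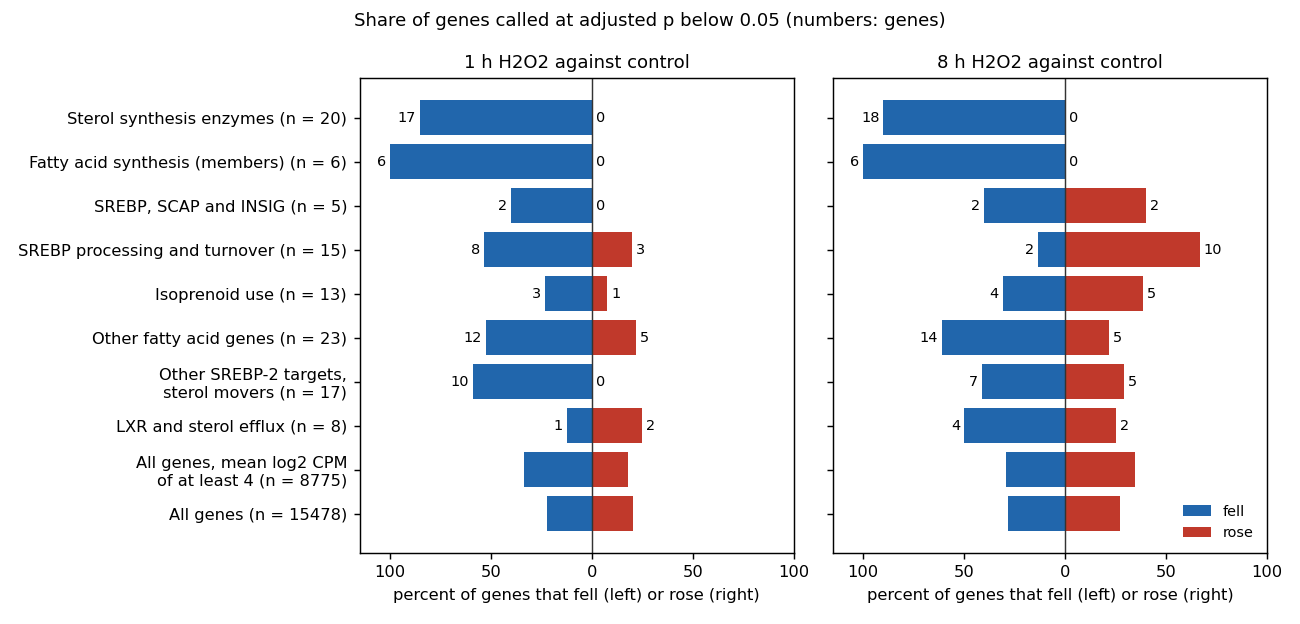
Percent of genes in each list that fell (blue, left) or rose (red, right) at an adjusted p below 0.05, for 1 h and 8 h of H2O2 against control, with the number of genes at the bar ends. Of the 20 sterol synthesis enzymes 17 fell at 1 h and 18 at 8 h, and the bottom bars give all genes.

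The authors' own results by gene set, made with camera, hold 14 sets with sterol or SREBP in their names. In the authors' deposited table of these sets 4 of the 14 passed at 1 h and 3 at 8 h, and 1 passed between the times. The share of all camera sets that passed was not counted, so these counts have no background beside them. The set that passed between the times was the Reactome set of cholesterol transport and efflux genes under NR1H3 and NR1H2, the LXR genes, with 10 genes, which was down at 1 h (adjusted p = 0.017, camera) and up at 8 h relative to 1 h (adjusted p = 0.013). Its direction at 1 h is the opposite of the sign of the median of the LXR and efflux list above, 0.08. The Reactome set of cholesterol biosynthesis, with 24 genes, was down at 1 h and at 8 h (adjusted p = 6.4e-04 and 8.5e-04, camera), as was the WikiPathways set of that name, with 13 genes (adjusted p = 1.5e-04 and 0.011). The WikiPathways set of cholesterol metabolism with Bloch and Kandutsch-Russell pathways, with 44 genes, was down at each time too (adjusted p = 0.0037 and 1.9e-04, camera). The hallmark set of cholesterol homeostasis, with 70 genes, did not pass (adjusted p = 0.57 at 1 h and 0.071 at 8 h), nor did the Reactome set of SREBP regulation, with 7 genes, which was down at 1 h and up at 8 h (adjusted p = 0.33 and 0.77). These sets share genes with each other and with the list described here, and no source used here states the correlation between genes that camera was given.

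Markers of the cell types that the culture could hold were read beside these genes. Of the precursor markers, Vim at 11.97, Nes at 10.59 and Sox2 at 8.43 log2 CPM were high in the authors' deposited table. The 9 precursor markers ranged from 1.55 to 11.97 log2 CPM, with a median of 6.65. Mbp, a marker of oligodendrocytes, which make much cholesterol for myelin, was the highest of its list at 10.27 log2 CPM. The 6 oligodendrocyte markers ranged from 1.43 to 10.27 log2 CPM, with a median of 7.04. Of the precursor markers 1 rose and 2 fell of 9 at 1 h, and 2 rose and 5 fell at 8 h, with medians of -0.08 and -0.16. The 3 of 9 called at 1 h are a smaller share than the 42.7% of all genes. Of 6 oligodendrocyte markers 0 rose and 1 fell at 1 h, and all 6 fell at 8 h, with medians of -0.04 and -0.84. Of 3 proliferation markers 1 rose at 1 h, and all 3 fell at 8 h, with medians of 0.09 and -2.81. Of 5 neuron markers 2 fell at 1 h and 3 at 8 h, and of 4 astrocyte markers 3 fell at each time, with no rise in either list. At 8 h 55.7% of all genes were called, 28.2% as fallen and 27.4% as risen. The shares of neuron markers called, 2 of 5 at 1 h and 3 of 5 at 8 h, are near the 42.7% and 55.7% of all genes. All of these calls were falls, and as fallen 22.2% of all genes were called at 1 h and 28.2% at 8 h. The neuron markers had medians of -0.26 at 1 h and -0.76 at 8 h, and the astrocyte markers of -0.27 and -0.38, beside -0.25 and -0.31 for the 32 genes. Of the microglia markers 2 of 5 and of the endothelial markers 2 of 4 were in the table, all 4 under 0.4 log2 CPM. The part of these shifts in the values of the sterol genes at 1 h and at 8 h was not tested.

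Reads of some genes can be hard to assign. The kit marks the strand, but no source used here states the strand setting used for counting. On GRCm38 with the GENCODE M21 annotation 13 of the 32 genes share exon bases with another gene. For Tm7sf2 12.1% of exon bases are shared with Vps51 on the same strand, and Vps51 was at 0.00 ± 0.05 at 1 h and -0.01 ± 0.05 at 8 h in the authors' deposited table. For Fdft1 18.3% are shared with Ctsb on the opposite strand, and Ctsb rose by 0.29 ± 0.04 at 8 h, where Fdft1 was not called. For Scap 13.2% and for Hmgcs1 12.1% are shared with another annotated gene on the opposite strand, and for Fdps 26.7% with one on the same strand. Of all 50-base words in its transcripts, Acat2, at a mean of 7.11 log2 CPM, shares 39.1% with its near copy Acat3, at -0.50 log2 CPM, and Acaca shares 29.2% with Gm5182, at 0.53 log2 CPM. In all, 7 of the 32 genes share over 5% of their words with other genes. Besides Acat2 and Acaca these are Fdps (26.2%), Idi1 (17.7%), Tm7sf2 (9.87%), Fdft1 (9.38%) and Ggps1 (5.54%). Scd2 shares 2.66% of its words with Scd1. How the authors' counting treated such reads is not known, so the values of these genes carry an uncertainty that was not measured.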

How the data were processed

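Poly-A RNA of 12 samples in 3 groups was sequenced from TruSeq stranded libraries, per the labels. The authors used edgeR and limma on build GRCm38, per the submitters' processing notes. No file used here holds per-sample values (0 columns). Fold changes and mean levels are deposited as log2 values and log2 CPM. The likelihood ratio and moderated t are each deposited as a score, and the authors give p-values with their Benjamini-Hochberg form. Other deposited columns are exon length in bases, calls and set sizes. The deposited adjusted p matched a correction over 15478 genes to within 1.3e-15. The design allowed for per-sample counts, which were not at hand, so the authors' GLM table was used as deposited. The members and lists were chosen with earlier results of these data known. Full statistics are given for up to 8 genes per comparison with the smallest adjusted p and for the SREBP, SCAP and INSIG genes, and 2 genes per further list and time are named, those with the smallest adjusted p. Marker genes and genes that share exons or sequence, outside that rule, were chosen after their values were seen. Adjusted p outside the rule are also given for Lbr and Stard4 at 1 h and for Hmgcs1, Ebp, Fdft1 and Msmo1 at 8 h. The same holds for Hmgcs1 and Lss for 8 h against 1 h. Tables were read with pandas 2.3.3 and numpy 2.4.6 in Python 3.11.15. Nothing in the files says whether the tests took account of the animal, and p-values measure the spread between the authors' samples. Of the cell type markers, 1 gene is not reported here and was left out of its list's counts.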

Additional observations from a re-analysis of the deposited data

Results flagged for a closer look

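The comparison of 8 h with 1 h of H2O2 tests whether the response differs between the times, and 22 of the 32 genes passed it in the authors' deposited table (edgeR, adjusted p below 0.05, against 62.7% of all genes). The log2 differences, 8 h minus 1 h, were negative for 13 genes. They were -0.30 for Acat2, -0.30 for Pmvk, -0.16 for Ggps1, -0.27 for Tm7sf2, -0.16 for Hsd17b7, -0.23 for Ebp and -0.22 for Sc5d. They were -0.20 for Dhcr7, -0.68 for Lbr, -0.30 for Srebf1, -0.38 for Insig1, -0.26 for Stard4 and -0.40 for Fasn. They were positive for 9 genes, at 0.22 for Hmgcs1, 0.24 for Fdft1, 0.11 for Sqle, 0.19 for Msmo1 and 0.17 for Srebf2. The others were 0.70 for Scap, 0.26 for Insig2, 0.10 for Scd1 and 0.11 for Scd2.

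Of the 18 genes named from the further lists, 16 passed the same test, against 62.7% of all genes. They had been chosen for a small adjusted p at 1 h or at 8 h, which makes a difference between the times more likely. The differences were negative for Aacs (-0.17), Abcg1 (-1.29), Cyp46a1 (-0.85), Elovl4 (-0.62), Fnta (-0.20), Gpam (-0.22) and Rabggtb (-0.21). They were positive for Acss2 (0.26), Erlin2 (0.44), Lpcat3 (0.13), Me1 (0.40), Nr1h2 (0.26) and Pdss2 (0.37). Sec24d (0.55), Vldlr (0.46) and Zmpste24 (0.29) were positive as well.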

How the results depend on the processing

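No paired analysis was possible because the files used here hold no per-sample values, and for that reason no replicate was left out either. With the authors' voom and limma table, with genes of a mean of at least 1 log2 CPM only, and with fold changes centred on the median of all genes, the call of each of the 32 genes was kept at 1 h and at 8 h. For 8 h against 1 h, Lss was called in addition with voom, and Elovl6 and Acly when centred. Some very small adjusted p were far larger with voom and limma than with edgeR. At 8 h Fasn had 2.3e-15 against 1.8e-74 and Scap 2.3e-13 against 4.1e-54, and at 1 h Elovl6 had 7.9e-12 against 1.4e-43. Others were smaller with voom and limma, such as that of Hmgcs1 at 8 h, 0.0019 against 0.0094. With a minimum absolute log2 fold change of 0.25, the genes called were 16 at 1 h and 10 for 8 h against 1 h, where 26 and 22 had been. With a Bonferroni adjustment 12 were called for 8 h against 1 h. For the further lists the settings were added after seeing the data. Of their 45 calls at 1 h, 58 at 8 h and 53 between the times, the minimum fold change left 12, 27 and 25, and Bonferroni left 16, 31 and 28. The stricter thresholds by construction call fewer genes, and no called value changed its direction in the settings run. Cyp51, not called for 8 h against 1 h, was at 0.01 with edgeR and at -0.00 with voom. The changes are small, and their error rests on the authors' model and on an unknown number of at most 4 samples per group. The depth of each sample is unknown, and genes of low level such as Abcg1 carry the widest errors.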
